A study of Homo sapiens with 6 samples.

Results

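The 9 genes described here make, salvage, guard or destroy deoxynucleotides, the building blocks of DNA, and were followed in AC16 cells after doxorubicin. They are RRM1, RRM2, RRM2B, TYMS, TK1, DCK, DTYMK, DUT and SAMHD1, taken by name from a count table of 58299 Ensembl genes, and all 9 of 9 were found and passed the filter on low counts. The table covers 3 libraries from cells kept for 48 h with the vehicle, 0.1% DMSO, and 3 from cells kept for 48 h with 100 nM doxorubicin, an anthracycline that poisons type II topoisomerases. AC16 is a single human line made by fusing adult ventricular cells with SV40-transformed fibroblasts, and both groups share that background. Poly(A) RNA was sequenced without strand information, with 17252862 to 19571731 counts per library. Nothing in the labels tells whether libraries of one treatment are separate cultures, and p-values therefore cover only the spread among these libraries, which may be technical.

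The cell type label was checked against markers. Of 8 cardiomyocyte markers, 0 passed the filter, the highest had 22 counts over all 6 libraries, and MYH6, MYH7, MYL2, NKX2-5 and RYR2 were at 0 in every DMSO library. Summed, they reached at most 0.215 CPM (counts scaled to a common library total) in DMSO and 0.911 to 1.74 CPM in doxorubicin. With no filter 3 of the 8 were called higher, as were 6100 of the 34828 genes tested in that setting. All 8 fibroblast markers passed, with a summed level of 22054 to 24911 CPM in DMSO and 13204 to 16594 CPM in doxorubicin. Of these 8, 6 were called lower, with COL1A1 3.13-fold and PDGFRB 2.45-fold lower, where 32.0% of all tested genes were called lower and 32.7% higher. With no filter, or with the replicate number as a block, 5 markers were called lower, and omission of each library in turn gave 5 to 6. Leaving out DMSO replicate 1 or doxorubicin replicate 1, or scaling by library totals, added 1 that was called higher. The part of this shift in the results that follow was not tested.

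Ribonucleotide reductase turns ribonucleotides into deoxyribonucleotides and sets the pace of their supply. It joins a large subunit, RRM1, which holds the catalytic and allosteric sites, with a small subunit that carries a tyrosyl radical. That small subunit is RRM2 in cycling cells, where its gene is read in S phase and its protein is destroyed later in the cycle. RRM2B, its paralog, is induced by DNA damage and used for DNA repair and by cells that do not divide. Thymidylate is made by TYMS from dUMP, which DUT provides by splitting dUTP, or by TK1 from thymidine. DTYMK then phosphorylates thymidylate, DCK salvages deoxycytidine and purine deoxynucleosides, and SAMHD1 hydrolyses deoxynucleoside triphosphates.

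RefSeq promoters (GRCh38.p14) were found for 8 of the 9 genes, all but RRM2B, at 13 transcription starts. They are shown for genes that moved apart, RRM2 and DUT, which fell after doxorubicin, and TYMS and TK1, which rose. Each sequence is the 150 bases before a start, read 5′ to 3′ on the gene's strand, in lower case. Capitals mark matches on either strand to TTTCGCGC, TTTGGCGC, TTTCCCGC or TTTGCCGC (forms of the E2F element), CCAAT (the box bound by NF-Y) and TTTGAA (the core of the cell cycle homology region), none of which lies inside another. Where a gene has several starts, the one with most matches is shown (DUT has 4 starts, RRM2 and TK1 have 2 each, and TYMS has 1).
RRM2 (chr2:10122589-10122738, plus strand): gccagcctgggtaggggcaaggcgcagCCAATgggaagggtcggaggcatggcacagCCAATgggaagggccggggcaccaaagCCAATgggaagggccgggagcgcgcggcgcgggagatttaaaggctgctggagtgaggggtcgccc
DUT (chr15:48332047-48332196, plus strand): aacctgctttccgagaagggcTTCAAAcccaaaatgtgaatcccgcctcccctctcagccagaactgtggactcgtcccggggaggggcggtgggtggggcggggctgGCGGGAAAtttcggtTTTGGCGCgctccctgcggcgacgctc
TYMS (chr18:657503-657652, plus strand): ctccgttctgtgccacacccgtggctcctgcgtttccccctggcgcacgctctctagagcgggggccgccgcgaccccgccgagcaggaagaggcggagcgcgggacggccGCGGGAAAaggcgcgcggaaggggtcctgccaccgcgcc
TK1 (chr17:78187053-78187202, minus strand): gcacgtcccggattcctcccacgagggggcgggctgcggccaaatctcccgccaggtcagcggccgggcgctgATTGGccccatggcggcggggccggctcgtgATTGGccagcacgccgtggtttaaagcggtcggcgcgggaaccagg
The RRM2 stretch holds 3 CCAAT boxes, whose first bases lie 123, 93 and 66 bases before the start, and TK1 holds 2 on the other strand, 77 and 46 bases before it. The TYMS stretch has 1 E2F form, 39 bases before its start, and the DUT stretch shown has 2, 42 and 27 bases before. Over windows from 250 bases before to 50 after a start, an E2F form was in 3 of the 13 promoters (of DCK, DUT and TYMS), CCAAT in 6 (of DTYMK, RRM1, RRM2, SAMHD1 and TK1) and TTTGAA in 2 (of DUT and RRM1). Of all 35116 promoters in the table, 3.31%, 34.6% and 15.2% hold a match. E2F forms and CCAAT each occurred both in genes that fell and in genes that rose. A match is a description of the letters and not a binding site.

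All 9 genes were called changed (adjusted p under 0.05 in the quasi-likelihood test of edgeR): 3 were higher and 6 lower after doxorubicin. That has to be read against a background in which 64.7% of 15358 tested genes were called, 32.7% higher and 32.0% lower. In all 9 genes the 3 libraries of one group lay wholly above the 3 of the other, as they did in 69.1% of tested genes. The median log2 fold change was -0.51 over the 9 genes and -0.0013 over all tested genes. When the same fit was tested against a 1.5-fold change (glmTreat), 4 of the 9 were called, RRM2B higher and RRM2, DTYMK and DUT lower, against 25.3% of tested genes. Values are CPM with TMM scaling, which fixes them relative to the other genes, so a change shared by all RNA would not be seen. In a bulk sample, fewer cells expressing a gene and less RNA per cell cannot be told apart.

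**Figure D1:**
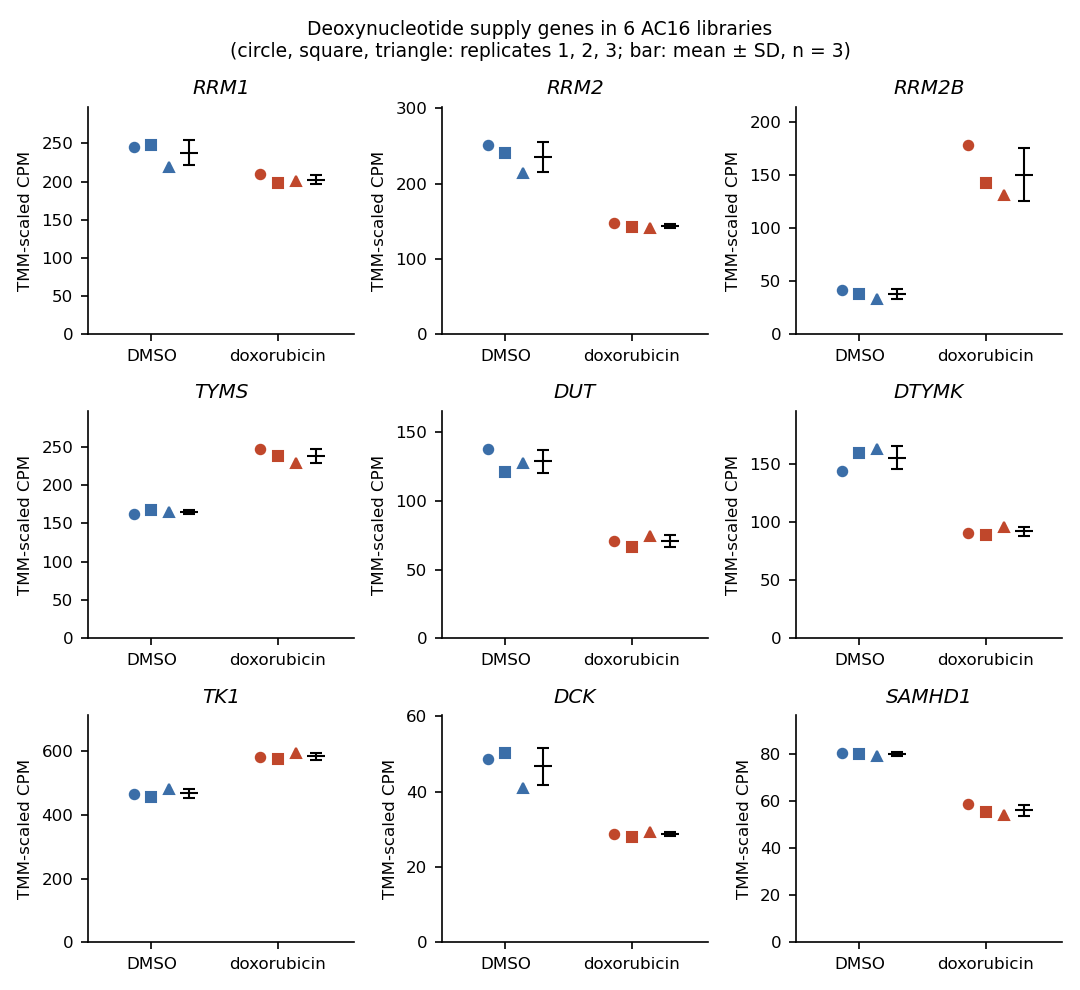
TMM-scaled CPM (vertical axis, from 0) of each gene in the 3 DMSO libraries (blue) and 3 doxorubicin libraries (red), with mean ± SD (n = 3). RRM2B, TYMS and TK1 lie higher in every doxorubicin library, and the other 6 genes lie lower in every one.

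The gene of the large subunit, RRM1 (chr11:4094707-4138876, GRCh38, plus strand), changed least. It stood at 245.9, 248.1 and 218.9 CPM in DMSO replicates 1 to 3 and at 209.8, 198.2 and 200.2 CPM in doxorubicin replicates 1 to 3. The groups did not overlap, with DMSO replicate 3 the nearest to the doxorubicin libraries. RRM1 fell 1.17-fold, with means of 237.7 ± 16.3 CPM in DMSO and 202.7 ± 6.20 CPM in doxorubicin (SD, n = 3), a log2 difference of -0.23 (SE 0.06, edgeR adjusted p = 0.0054).

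RRM2 (chr2:10120698-10131419, plus strand), the small subunit gene of cycling cells, had 251.2, 240.3 and 213.5 CPM in DMSO and 147.2, 143.1 and 141.4 CPM in doxorubicin. The doxorubicin libraries were close together, and the lowest DMSO library was well above them. Its level fell 1.63-fold, with means of 235.0 ± 19.4 CPM in DMSO and 143.9 ± 2.99 CPM in doxorubicin (SD, n = 3), a log2 difference of -0.71 (SE 0.07, edgeR adjusted p = 1.4e-07). Of all tested genes, 12.9% had a lower fold change. A same-strand gene, AC007240.1, with 51 counts against 20804 for RRM2, covers 20.2% of its exon bases.

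RRM2B (chr8:102204502-102239118, minus strand) had the largest change of the 9 genes. It rose from 42.1, 38.4 and 33.5 CPM in DMSO to 178.3, 142.3 and 130.7 CPM in doxorubicin. Every doxorubicin library was far above every DMSO library, and doxorubicin replicate 1 was the highest, 0.39 above the log2 mean of replicates 2 and 3. The rise was 3.95-fold, with means of 38.0 ± 4.32 CPM in DMSO and 150.4 ± 24.8 CPM in doxorubicin (SD, n = 3), a log2 difference of 1.98 (SE 0.12, edgeR adjusted p = 3.0e-07), and 93.7% of tested genes had a lower fold change. Without doxorubicin replicate 1 the log2 fold change was 1.845. No exon of another gene overlaps RRM2B.

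The balance between the small subunit genes was measured as the ratio of their counts within each library, which no scaling enters. RRM2 had 5.96, 6.25 and 6.37 times the counts of RRM2B in DMSO replicates 1 to 3, and 0.826, 1.01 and 1.08 times in doxorubicin replicates 1 to 3. RRM2 was thus ahead in every DMSO library, and the genes were near parity in every doxorubicin library, with RRM2B ahead in replicate 1. The log2 ratio went from 2.63 ± 0.05 to -0.05 ± 0.20 (SD, n = 3), a 6.42-fold shift towards RRM2B. A two-sided exact permutation test gave p = 0.1, the smallest that 3 against 3 libraries allow, and p = 0.1 after adjustment over the 8 ratios computed.

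Levels of different genes were compared per kilobase (kb) of summed exon length, which depends on the gene models used. AC007240.1 covers 20.2% of the RRM2 exon bases, and no other gene overlaps those of RRM2B. How reads in shared bases were counted is not given, so RRM2 may stand too low per kb beside RRM2B. On that scale RRM2B made up 13.9%, 13.3% and 13.1% of the RRM2 and RRM2B sum in DMSO and 53.7%, 48.8% and 47.0% in doxorubicin. The sum itself was 54.8, 52.1 and 46.1 CPM per kb in DMSO and 59.8, 52.5 and 50.1 CPM per kb in doxorubicin. Its groups overlapped, with means of 51.0 ± 4.42 and 54.1 ± 5.03 CPM per kb (SD, n = 3), and the difference of 3.15 CPM per kb was smaller than the spread within either group (two-sided exact permutation p = 0.5). The loss of 17.1 CPM per kb for RRM2 stood beside a gain of 20.3 CPM per kb for RRM2B. Measured against RRM1, the sum was 0.896 ± 0.030 in DMSO and 1.11 ± 0.073 in doxorubicin, groups that did not overlap (exact permutation p = 0.1).

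**Figure D2:**
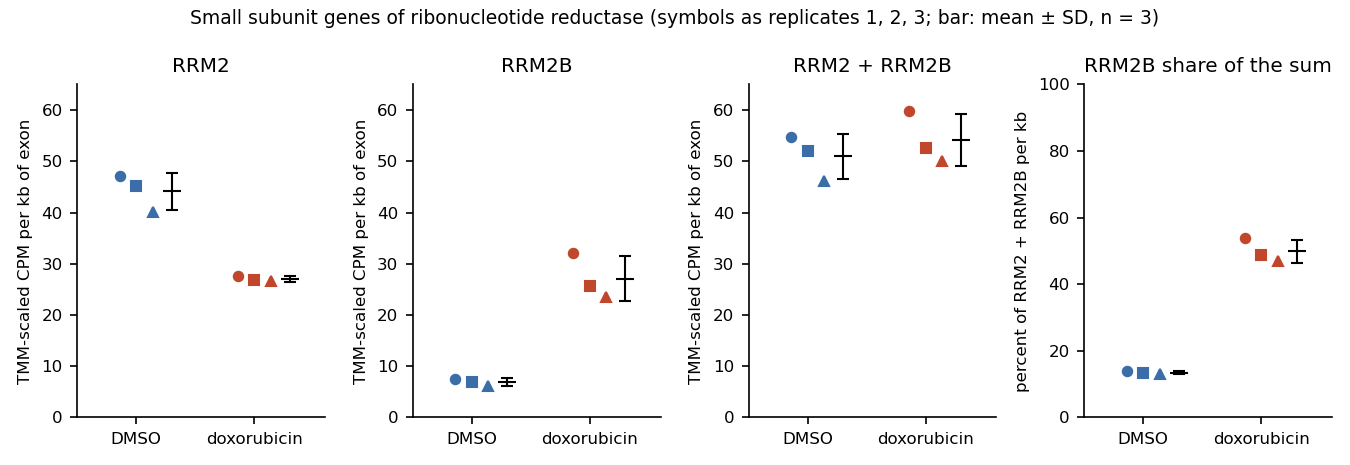
Levels in TMM-scaled CPM per kb of RRM2, RRM2B and their sum, and the RRM2B share of the sum in percent, by library (blue DMSO, red doxorubicin; bars are mean ± SD, n = 3). RRM2 falls and RRM2B rises, the sum overlaps between groups, and the RRM2B share goes from between 13.1% and 13.9% to between 47.0% and 53.7%.

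The genes of thymidylate supply moved in opposite directions. TYMS (chr18:657604-673578, plus strand), thymidylate synthase, had 162.6, 167.1 and 164.5 CPM in DMSO and 247.3, 237.5 and 228.7 CPM in doxorubicin. Its DMSO libraries differed little, and all doxorubicin libraries were higher. TYMS rose 1.44-fold, with means of 164.7 ± 2.23 CPM in DMSO and 237.8 ± 9.31 CPM in doxorubicin (SD, n = 3), a log2 difference of 0.53 (SE 0.06, edgeR adjusted p = 8.8e-07). Overlap with other genes' exons takes in 26.2% of the TYMS exon bases, chiefly through ENOSF1 on the opposite strand. ENOSF1 had 2652 counts against 22036 for TYMS and fell, with means of 26.2 ± 0.587 CPM in DMSO and 22.2 ± 1.86 CPM in doxorubicin (edgeR adjusted p = 0.026).

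DUT (chr15:48331011-48343373, plus strand), the dUTPase that keeps uracil out of DNA and supplies dUMP to TYMS, went the other way. It had 137.6, 121.0 and 127.0 CPM in DMSO and 71.1, 66.2 and 74.7 CPM in doxorubicin. The groups were far apart, and DUT fell the most of the 6 genes that fell, 1.82-fold with means of 128.5 ± 8.38 CPM in DMSO and 70.6 ± 4.26 CPM in doxorubicin (SD, n = 3), a log2 difference of -0.86 (SE 0.07, edgeR adjusted p = 2.0e-08). Within a library, the log2 ratio of TYMS to DUT counts rose from 0.36 ± 0.11 to 1.75 ± 0.12 (SD, n = 3), a 2.63-fold shift with no overlap (two-sided exact permutation p = 0.1, the smallest possible). DUT pseudogenes collected 11 counts or fewer each, and an opposite-strand gene, DUT-AS1, with 64 counts, covers 14.5% of its exon bases.

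DTYMK (chr2:241675742-241686991, minus strand), thymidylate kinase, acts on thymidylate from either source. Its values were 144.2, 159.1 and 162.9 CPM in DMSO and 90.9, 88.8 and 96.1 CPM in doxorubicin. All doxorubicin libraries lay below the lowest DMSO library. DTYMK fell 1.69-fold, with means of 155.4 ± 9.86 CPM in DMSO and 91.9 ± 3.797 CPM in doxorubicin (SD, n = 3), a log2 difference of -0.76 (SE 0.07, edgeR adjusted p = 4.9e-08).

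The salvage kinases also parted. TK1 (chr17:78174075-78187233, minus strand), the cytosolic thymidine kinase of S phase, was the most abundant of the 9 genes per kb in both groups. It had 463.5, 453.7 and 480.9 CPM in DMSO and 579.4, 573.4 and 593.0 CPM in doxorubicin. The gap between groups was larger than the range within either. TK1 rose 1.25-fold, with means of 466.0 ± 13.7 CPM in DMSO and 581.9 ± 10.1 CPM in doxorubicin (SD, n = 3), a log2 difference of 0.32 (SE 0.06, edgeR adjusted p = 1.4e-04).

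DCK (chr4:70992538-71030914, plus strand), deoxycytidine kinase, had 48.7, 50.3 and 41.0 CPM in DMSO and 28.9, 28.0 and 29.2 CPM in doxorubicin. DMSO replicate 3 was the low one of its group, as for RRM1, RRM2 and RRM2B, and still above every doxorubicin library. DCK fell 1.63-fold, with means of 46.7 ± 4.93 CPM in DMSO and 28.7 ± 0.613 CPM in doxorubicin (SD, n = 3), a log2 difference of -0.70 (SE 0.09, edgeR adjusted p = 2.6e-06). The ratio of TK1 to DCK counts shifted 2.02-fold towards TK1, with log2 values of 3.33 ± 0.20 in DMSO and 4.34 ± 0.01 in doxorubicin (SD, n = 3). MOB1B, a same-strand neighbour that rose 1.58-fold, covers 6.17% of the exon bases of DCK and had 6896 counts against 4140.

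SAMHD1 (chr20:36889773-36951901, minus strand), the enzyme that removes deoxynucleoside triphosphates, was lower after doxorubicin. So were RRM1, RRM2, DCK, DTYMK and DUT, while RRM2B, TYMS and TK1 were higher. SAMHD1 values were 80.6, 80.3 and 79.1 CPM in DMSO and 58.8, 55.6 and 54.0 CPM in doxorubicin. Libraries within each group were close, and the groups were well separated. SAMHD1 fell 1.42-fold, with means of 79.99 ± 0.794 CPM in DMSO and 56.1 ± 2.45 CPM in doxorubicin (SD, n = 3), a log2 difference of -0.51 (SE 0.07, edgeR adjusted p = 3.8e-06). TLDC2, on the opposite strand, covers 10.3% of its exon bases. Against RRM2 it moved little: the log2 ratio of SAMHD1 to RRM2 counts was -1.55 ± 0.11 in DMSO and -1.36 ± 0.03 in doxorubicin (SD, n = 3).

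Ratios between genes of the set do not depend on scaling, and in each of the 8 the groups did not overlap, so each exact permutation p was 0.1, the smallest possible. The shifts ranged widely. RRM2B to RRM1 rose 4.61-fold and RRM2 to RRM1 fell 1.39-fold. TYMS to TK1, genes that both rose, still shifted 1.155-fold towards TYMS, and SAMHD1 to RRM2, genes that both fell, shifted 1.14-fold towards SAMHD1.

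**Figure D3:**
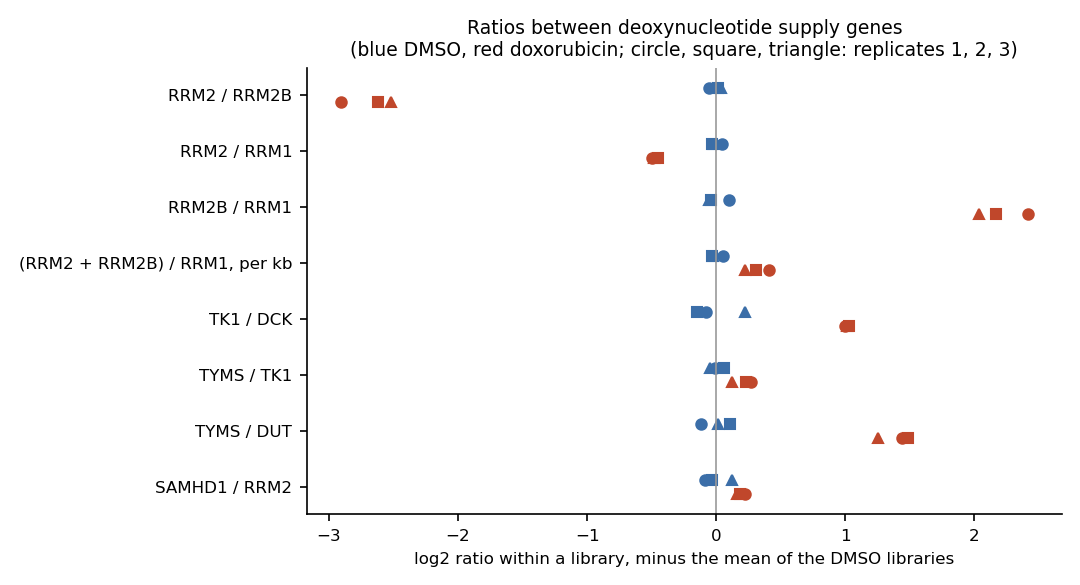
Log2 ratios of counts within each library, less the mean of the DMSO libraries (horizontal axis), for 8 pairs of genes, the sum of RRM2 and RRM2B being taken per kb (blue DMSO, red doxorubicin). RRM2 to RRM2B moves furthest, by -2.68, and RRM2B to RRM1, TYMS to DUT and TK1 to DCK move the other way by 2.21, 1.39 and 1.02.

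The order of levels per kb also changed. In DMSO it ran from TK1 (250.4 ± 7.38 CPM per kb) through TYMS (66.7 ± 0.902), DTYMK (63.4 ± 4.02), RRM1 (56.9 ± 3.89), RRM2 (44.1 ± 3.65), DUT (35.0 ± 2.28) and DCK (14.5 ± 1.53) to SAMHD1 (7.10 ± 0.0705) and RRM2B (6.85 ± 0.779; SD, n = 3 throughout). TYMS and DTYMK, DTYMK and RRM1, and SAMHD1 and RRM2B overlapped in the ranges of their libraries, although the means of DTYMK and RRM1 lay further apart than either SD. In doxorubicin the order was TK1 (312.7 ± 5.40 CPM per kb), TYMS (96.3 ± 3.77), RRM1 (48.5 ± 1.48), DTYMK (37.5 ± 1.55), RRM2B (27.1 ± 4.47), RRM2 (27.0 ± 0.562), DUT (19.2 ± 1.16), DCK (8.89 ± 0.190) and SAMHD1 (4.99 ± 0.217). RRM2B went from place 9 to place 5, and it and RRM2 were the neighbours that overlapped there.

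Genes known to regulate these enzymes were read from the same fit. Of 7 read, 1 rose and 5 fell, where 32.7% of all tested genes were called higher and 32.0% lower. CDKN1A, an inhibitor of cyclin-dependent kinases, rose 35.9-fold, from 170.1 ± 10.99 to 6099.8 ± 324 CPM. CCNF, cyclin F, which marks RRM2 protein for destruction, fell 2.89-fold, from 123.1 ± 7.46 to 42.6 ± 3.51 CPM, and FZR1, an activator of the anaphase-promoting complex that also acts on RRM2, fell 1.77-fold. CCNA2, CDK1 and CDK2, whose kinases phosphorylate SAMHD1, fell 4.14-fold, 1.90-fold and 1.16-fold (each with an adjusted p of 0.00513 or lower, edgeR). E2F1, which drives S-phase genes, had 156.8 ± 11.8 CPM in DMSO and 140.8 ± 9.94 in doxorubicin (edgeR adjusted p = 0.067). It was called lower with no filter (adjusted p = 0.0272) and without DMSO replicate 1 (0.0372) or doxorubicin replicate 1 (0.0233).

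Steps that feed the pathway were read in the same way. Of 7 folate cycle genes, 5 fell and 1 rose (median log2 fold change -0.52), beside 32.0% lower and 32.7% higher over all tested genes, and no test compared the lists with other genes. SLC19A1, a folate carrier, fell 2.95-fold from 90.7 ± 2.29 to 30.7 ± 3.36 CPM, and SHMT1, the cytosolic serine hydroxymethyltransferase, fell 2.27-fold from 86.4 ± 2.74 to 38.1 ± 2.41 CPM. The member that rose was MTHFD2, a mitochondrial folate enzyme, 1.75-fold from 144.9 ± 12.8 to 253.0 ± 7.02 CPM. Exons of COL18A1, on the opposite strand with 6461 counts against 6683, are the largest overlap with SLC19A1, and 33.2% of MTHFD2 exon bases overlap other genes.

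Purine and pyrimidine synthesis are set beside the same shares, 32.0% of tested genes lower and 32.7% higher. Of 15 genes for purines, 10 fell and 2, ADSS1 and APRT, rose (median log2 fold change -0.33). PFAS, an enzyme of purine ring assembly, fell 2.02-fold from 226.5 ± 10.2 to 112.1 ± 4.29 CPM, and ADSS1, an adenylosuccinate synthase, rose 8.97-fold from 0.410 ± 0.256 to 3.796 ± 1.498 CPM. Of 5 genes for pyrimidines, 3 fell and 1 (UMPS) rose, with a median of -0.53. CTPS2 and CTPS1, the CTP synthases, fell 2.13-fold and 1.51-fold. UMPS, from 59.0 ± 1.05 to 66.3 ± 0.196 CPM (adjusted p = 0.029, edgeR), was not called by DESeq2, with no filter, or without DMSO replicate 1 or 2 or doxorubicin replicate 2 or 3 (adjusted p = 0.0534 to 0.176).

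Among other kinases, deaminases and carriers of nucleosides, 3 of 14 measured genes were higher and 7 lower, with a median of -0.21. Over all tested genes 64.7% were called, 32.7% higher and 32.0% lower. The mitochondrial salvage kinases split as TK1 and DCK did, but in the other sense: TK2, for thymidine, fell 1.41-fold from 20.5 ± 0.365 to 14.5 ± 1.25 CPM, and DGUOK, for deoxyguanosine, rose 1.22-fold from 36.9 ± 0.536 to 44.9 ± 3.42 CPM. NME4, a mitochondrial nucleoside diphosphate kinase, fell 2.44-fold from 102.8 ± 8.12 to 42.1 ± 7.22 CPM. Of the nucleoside carriers, SLC29A1 rose 1.36-fold from 83.0 ± 4.95 to 113.3 ± 5.87 CPM, and SLC29A2 fell 2.59-fold from 3.20 ± 0.544 to 1.23 ± 0.12996 CPM. NME1, which rose 1.77-fold, shares exons with the NME1-NME2 readthrough gene and is close in sequence to NME2, so its counts are uncertain. Other genes' exons cover 25.0% of the TK2, 15.6% of the NME4 and 10.3% of the SLC29A2 exon bases.

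**Figure D4:**
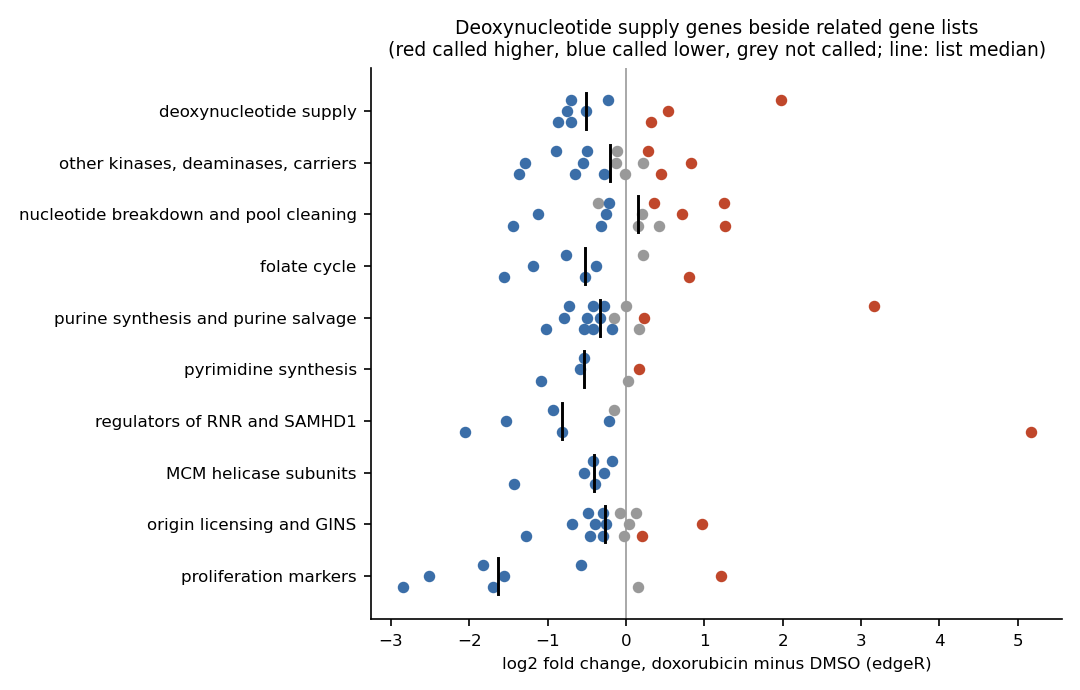
Log2 fold changes (horizontal axis) of the 9 deoxynucleotide supply genes and of the genes of 9 other lists that passed the filter (red called higher, blue called lower, grey not called; the line is the list median). Most lists have medians below 0, and RRM2B at 1.98 stands apart from the other 8 genes of its list.

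Genes of DNA replication were read against the same background, 64.7% of tested genes called, 32.7% higher and 32.0% lower. All 6 MCM helicase subunit genes fell (median log2 fold change -0.41), led by MCM6 (2.69-fold, from 167.0 ± 18.1 to 62.0 ± 2.32 CPM) and MCM5 (1.44-fold). Scaled by library totals, 5 MCM genes were called lower, and omission of each library in turn gave 5 to 6. Tested against a 1.5-fold change (glmTreat), 1 was called lower. Of 14 genes for origin licensing and GINS, 8 fell and 2 rose, GINS4 by 1.96-fold and GINS1 by 1.153-fold. The list median was -0.27, and GINS2 fell 2.43-fold. Other genes' exons cover 23.6% of the GINS4 exon bases. GINS1 was not called by DESeq2, with no filter, or without DMSO replicate 2 or 3 or doxorubicin replicate 1 (adjusted p = 0.051 to 0.0928). No test of a difference between these lists and the deoxynucleotide genes was made. Of 8 proliferation markers, 6 fell. The sum over all 8, PCNA included, was 2061.9 to 2233.1 CPM in DMSO and 1208.3 to 1250.3 CPM in doxorubicin. For sums, CPM were scaled to library totals, without TMM. CCNB1, cyclin B1, fell 7.22-fold and BUB1, a spindle checkpoint kinase, 5.70-fold, while PCNA, the replication clamp, rose 2.31-fold from 311.7 ± 9.97 to 719.2 ± 33.8 CPM. The part of reduced proliferation markers in the changes of the 9 genes was not tested.

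Among 12954 protein-coding genes, those with the profile nearest to RRM2 over the 6 libraries (smallest Euclidean distance between centred log2 CPM values) were BCKDHB at 0.066, PSMD14 at 0.067 and KIF20B at 0.077. Their log2 fold changes were -0.75, -0.73 and -0.74. Nearest to RRM2B were LPXN at 0.149, RAB27B at 0.151 and PLCL2 at 0.202, with log2 fold changes of 1.999, 2.02 and 1.97. With 2 groups of 3 libraries, such likeness mostly reflects a similar fold change.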

How the data were processed

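The authors deposited, for each library, counts of reads over the exons of each gene, unscaled and in the layout that featureCounts writes, per the file headers. Software listed in the submitters' processing notes is featureCounts, STAR, SAMtools and Subread, and the build is GRCh38. Versions, strand and overlap settings are not given in the sources used here. The summed exon length per gene is the authors' own value, in bases. Symbols came from a gene name table (57717 of 58299 IDs), with GENCODE release 29 for gene types and other names. The spans of all 9 genes are those of GENCODE. Columns of other samples numbered 0.

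Genes were filtered with filterByExpr of edgeR 4.0.16 (R 4.3.3; minimum count 10 and total 15) and scaled by TMM. Doxorubicin was set against DMSO, with no covariates, in the two-sided quasi-likelihood test with robust dispersion, and p-values were adjusted over 15358 genes by the Benjamini-Hochberg method. The SE is approximate, from the log2 fold change and its F. Ratios used counts without a pseudocount. The procedure was first run on simulated counts in which 14880 of 15074 genes were unchanged, far more than in these data. It recovered 56.7% of 67 genes changed 1.5-fold, 89.2% of 65 changed 2-fold and 96.8% of 62 changed 4-fold there. Of the 14880 unchanged genes, 12 were called. The simulation cannot tell how the fit behaves when most genes change.

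Chi-square per degree of freedom between libraries of a group was 2.82 to 9.39, so each library counted as 1 replicate. Doxorubicin replicate 1 gave 9.39 and 9.12 against replicates 2 and 3, which gave 2.82 against each other. DMSO pairs gave 4.81 to 8.66. From each of 11 related lists the rule named the 2 called genes that changed most, where mean log2 CPM was 1 or more. It allowed others where 5 or fewer of a list moved in one direction, and these, like TK2, DGUOK, E2F1 and the neighbours ENOSF1 and MOB1B, were picked after their values were seen. For RRM2 and RRM2B the rule named the 3 nearest profiles. Some genes of the lists are not reported here. The 9 genes and the lists were chosen with earlier results of these data known. Alternatives were DESeq2 1.42.0, RLE, upper-quartile and library-total scaling, other filters, a replicate block, omission of each library, glmTreat at 1.5-fold and, for ratios, a pseudocount of 10.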

Additional observations from a re-analysis of the deposited data

How the results depend on the processing

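Over 14 alternatives the direction of each of the 9 genes stayed the same in all 126 values. All their calls held except under glmTreat against 1.5-fold, which asks for a larger change: there 1 member was higher and 3 lower, among 2418 genes higher and 1470 lower in all. Leaving out each library in turn gave 3 members higher and 6 lower each time, and log2 shifts of -2.77 to -2.57 for the RRM2 to RRM2B ratio. None of 64 alternative values of the 8 ratios changed direction. With the replicate number as a block, 3 members were again higher and 6 lower, with 5003 genes higher and 4917 lower. Correlations of same-numbered libraries' deviations were 0.053, -0.01 and 0.077, and the libraries numbered 2 did not correlate best with each other, so the numbers were not taken as pairs. None of 630 alternative values for the 45 genes of other lists that were named or could be named changed direction. Outside glmTreat, 16 of them lost a call, all of UMPS, GINS1, DCTPP1 or NUDT1, and E2F1 gained one in 3. Other genes of the lists were not followed one by one. The counts of genes called per list moved by more than 1.5-fold, or to or from 0, in 30 of 308 cases, 17 of them outside glmTreat. Levels per kb moved by more than 1 SD in 2 of 36 cases, TYMS and SAMHD1 in DMSO with library totals. Each of the 9 genes had 508 or more counts in every library.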

Other observations

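Enzymes that break down nucleosides and clean the nucleotide pool, which lie downstream of the genes above, had a share of calls near that of all tested genes. Of 13 measured, 4 rose (UPP1, PNP, ADA and ITPA) and 5 fell (DPYD, NT5C, NT5C2, DCTPP1 and NUDT1), with 0.15 as the median log2 fold change, and over all tested genes 64.7% were called, 32.7% higher and 32.0% lower. Without doxorubicin replicate 2, 3 fell, as DCTPP1 and NUDT1 were no longer called. DCTPP1 was also not called with library totals only, or without DMSO replicate 2 or doxorubicin replicate 3. UPP1, uridine phosphorylase, rose 2.41-fold, from 11.7 ± 1.91 to 28.3 ± 4.24 CPM (SD, n = 3), and PNP, purine nucleoside phosphorylase, rose 2.38-fold, from 36.2 ± 0.934 to 86.3 ± 11.9 CPM. ADA, adenosine deaminase, rose 1.65-fold, from 6.42 ± 1.35 to 10.6 ± 1.44 CPM. In contrast DPYD, which starts the breakdown of uracil and thymine, fell 2.72-fold, with means of 46.2 ± 0.621 CPM in DMSO and 16.9 ± 2.49 CPM in doxorubicin (edgeR adjusted p = 2.2e-09). Of the exon bases, 60.7% in NT5C and 42.1% in DCTPP1 overlap other genes.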
